A study of Homo sapiens with 8 samples.

Results

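Tubulins are the subunits of microtubules, and 10 human tubulin genes were followed through a ribosomal protein knockdown: the alpha tubulins TUBA1A, TUBA1B and TUBA1C, the beta tubulins TUBB, TUBB2A, TUBB2B, TUBB3, TUBB4B and TUBB6, and the gamma tubulin TUBG1. They were found by symbol, and all 10 were listed in both deposited count tables and passed the low-count filter in both, out of 19073 genes listed in either table. They were selected on their RNA-seq difference between knockdown and control, with the statement that these RNAs fall together, so the RNA values below describe what the genes were chosen by and carry no test. Ribosome footprints come from other libraries and were tested. Footprint counts also depend on how much RNA there is, so a footprint fall is not independent of that choice.

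Alpha and beta tubulin form the heterodimer that polymerises into microtubules, and gamma tubulin, in its ring complex, starts new ones. Cells hold the level of soluble tubulin steady by autoregulation: when free heterodimers are in excess, TTC5 recognises the first amino acids of an alpha or beta tubulin as it emerges from the ribosome, and SCAPER and the CCR4-NOT deadenylase are recruited to destroy the mRNA being translated. The route therefore needs a translating ribosome, and it is specific to tubulin mRNA. In neurons and neuroblastoma cells tubulins are among the most abundant cytoskeletal proteins, and TUBB3 is the isotype used as a neuronal marker.

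The cells were SH-SY5Y, an established human neuroblastoma line. Knockdown cells carried a short hairpin RNA against RPS29 (shRPS29), a protein of the small ribosomal subunit, and control cells a control hairpin (shCONT). RNA-seq of total RNA and Ribo-seq, which counts the RNA fragments that ribosomes protect from nuclease, were each made from 2 knockdown and 2 control samples, 8 libraries in 4 groups of 2. The labels do not say how many hairpins were used, how long after delivery cells were taken or whether replicates were separate cultures, so p-values measure the spread between these libraries, which may be technical.

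RPS29 itself had 147 and 117 RNA counts in the knockdown libraries, against 2430 and 2872 in the controls. RNA-seq libraries held 17539104 to 19156104 counts and Ribo-seq libraries 2630463 to 4375971, and in Ribo-seq 4 genes took 35.3 to 52.3% of a library. Knockdown replicate 1 stood apart in Ribo-seq (Spearman correlation with the other 3 libraries 0.455 to 0.732, over 14019 genes), whereas the RNA-seq libraries correlated at 0.985 or above. Ribo-seq counts at silent genes were also higher in the knockdown: over 1280 protein-coding genes with at most 0.1 RNA CPM (counts scaled to library size), the median per kb of gene was 0.355 and 0.268 counts in knockdown libraries, against 0.083 and 0.0464 counts in controls. Of 12 noradrenergic neuroblastoma markers 11 were at 141 CPM or more in every RNA-seq library, while TH, tyrosine hydroxylase, was at 0.0512 and 0 CPM in knockdown libraries and 0.225 and 0.111 CPM in controls. Summed epithelial markers came to 7.23 and 8.88 CPM in knockdown libraries against 9.02 and 11.4 in controls, and blood markers to 2.31 and 1.88 CPM against 0.902 and 1.11. Summed fibroblast markers came to 403 and 451 CPM in the knockdown and 425 and 400 CPM in the controls, most of it COL3A1 and THY1.

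The 10 genes sit at 7 places in the genome (RefSeq, GRCh38.p14). TUBA1B (chr12:49127782-49131395), TUBA1A (chr12:49184795-49189080) and TUBA1C (chr12:49227926-49274600) are neighbours on chromosome 12, and TUBB2A (chr6:3153666-3157544) and TUBB2B (chr6:3224277-3227653) are neighbours on chromosome 6, where TUBB (chr6:30720352-30725422) lies far from them. TUBB3 is at chr16:89921925-89936097, TUBB4B at chr9:137241287-137243707, TUBB6 at chr18:12307669-12329826 and TUBG1 at chr17:42609683-42615238. TUBA1A, TUBA1B and TUBA1C are near-identical in coding sequence, as are TUBB2A and TUBB2B, so reads can be split among them by counting. Values of a single copy are therefore uncertain. A sum over a class does not depend on that split, though how reads that match several genes were counted is not given.

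Because most of these RNAs were lower together, the bases before their transcription starts were searched for short motifs, both strands, in the 250 bases before the first start listed by RefSeq. CCAAT (the letters bound by NF-Y, common in promoters of growth genes) was found in 6 of 10, against 34.5% of 15843 protein-coding promoters: TUBA1A, TUBA1C, TUBB, TUBB2B, TUBB4B and TUBG1. At least 3 matches were found in TUBB4B, against 3.7% of promoters, and at least 2 in TUBA1A and TUBB4B, against 11.6%. TTTGAA, the core of the cell-cycle homology element, was found in TUBA1C and TUBB4B, against 10.8% of promoters. GGGCGG, the GC box, was found in 5 of 10, against 56%, and TATAAA, the TATA box, in TUBB2A, against 9.23%. TTCCCGC, an E2F element, and CACGTG, an E-box, were found in 0 of 10, against 7.44 and 7.84%. Matches of different motifs did not overlap. Shown here, chosen after the matches were seen, are the promoter with the most CCAAT matches (TUBB4B, plus strand, chr9:137241037-137241286), another with more than 1 (TUBA1A, minus strand, chr12:49189081-49189330), that of a lower RNA with no CCAAT (TUBA1B, minus strand, chr12:49131396-49131645), and that of TUBB6, whose RNA was higher (plus strand, chr18:12307419-12307668), from RefSeq GRCh38.p14. Capitals mark the CCAAT box, the cell-cycle homology core and the TATA box, read on either strand.
TUBB4B: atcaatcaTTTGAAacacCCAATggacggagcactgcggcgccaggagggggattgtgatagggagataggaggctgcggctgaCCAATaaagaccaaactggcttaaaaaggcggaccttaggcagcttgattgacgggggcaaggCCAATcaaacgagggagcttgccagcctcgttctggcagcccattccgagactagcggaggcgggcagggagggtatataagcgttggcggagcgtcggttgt
TUBA1A: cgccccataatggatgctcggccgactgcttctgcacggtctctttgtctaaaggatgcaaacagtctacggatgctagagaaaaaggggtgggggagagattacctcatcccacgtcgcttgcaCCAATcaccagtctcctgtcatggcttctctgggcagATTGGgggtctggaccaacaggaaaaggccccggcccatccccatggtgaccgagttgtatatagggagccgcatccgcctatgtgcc
TUBA1B: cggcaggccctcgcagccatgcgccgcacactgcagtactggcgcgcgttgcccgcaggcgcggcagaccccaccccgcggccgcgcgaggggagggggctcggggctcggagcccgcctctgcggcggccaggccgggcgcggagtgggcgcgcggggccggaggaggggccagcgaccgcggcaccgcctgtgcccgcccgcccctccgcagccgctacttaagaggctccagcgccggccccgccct
TUBB6: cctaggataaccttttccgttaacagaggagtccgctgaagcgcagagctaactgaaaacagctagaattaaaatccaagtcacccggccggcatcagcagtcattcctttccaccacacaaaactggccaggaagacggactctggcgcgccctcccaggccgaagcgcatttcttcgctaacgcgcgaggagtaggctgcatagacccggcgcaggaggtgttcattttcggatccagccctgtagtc
In TUBB4B the CCAAT matches begin 232, 166 and 103 bases before the start, and TTTGAA begins 242 bases before it. In TUBA1A they begin 125 bases before the start on the forward strand and 88 bases before it on the other. TUBA1B is the most GC-rich of the 10 windows (81.2%, against a median of 62.4% over all promoters), and its GC box matches, not in capitals, begin 54, 50 and 7 bases before the start, the first pair overlapping. A match describes letters, not a bound site. RefSeq lists 3 starts for TUBA1C and 2 each for TUBB, TUBB3 and TUBB6, and only the first was searched. TUBA1B, TUBB2A and TUBB3 were lower in RNA with no CCAAT in the window, and TUBG1 had one with nearly level RNA. In these windows CCAAT was thus both present and absent among lower RNAs, and whether it bears on the RNA change was not tested.

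Alpha tubulin RNA was lower in the knockdown. Summed over the 3 genes it was 3644 and 3227 CPM in the knockdown libraries, against 5641 and 5841 CPM in the controls, or 59.8% of the control mean. CPM here use TMM-scaled library sizes, and in bulk cells a smaller share of cells making a transcript and less transcript per cell cannot be told apart. TUBA1A, the isotype of postmitotic neurons, had 1303 and 1165 CPM in knockdown libraries, against 2332 and 2393 CPM in controls, a log2 fold change of -0.94 (SE 0.0834). Only 2.5% of all tested genes had a lower RNA fold change. TUBA1B, the broadly expressed isotype, had 2340 and 2061 CPM in knockdown libraries, against 3308 and 3446 CPM in controls, a log2 fold change of -0.62 (SE 0.0873). In both genes the groups lay well apart. TUBA1C, another broadly expressed isotype, had 26 and 19 counts in knockdown libraries, against 30 and 40 in controls, a log2 fold change of -0.71 (SE 0.389), and at these counts its libraries of opposite groups come within a few reads of each other.

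Beta tubulin RNA was lower in sum and in 5 of the 6 genes, which ranged from 52.1% (TUBB3) to 74.1% (TUBB2A) of control. The sum over the 6 genes was 4458 and 4058 CPM in knockdown libraries, against 6875 and 7257 CPM in controls, or 60.3% of the control mean. TUBB, the isotype of dividing cells, had 2762 and 2525 CPM in knockdown libraries, against 4194 and 4480 CPM in controls (log2 fold change -0.71, SE 0.0863). TUBB3, the neuronal isotype, had 513 and 498 CPM in knockdown libraries, against 964 and 978 CPM in controls (-0.94, SE 0.0733). TUBB3 and TUBA1A were thus the members furthest down in RNA, each at just over 52% of control (52.1% for TUBB3 and 52.2% for TUBA1A). TUBB4B, a broadly expressed isotype, had 410 and 353 CPM in knockdown libraries, against 653 and 718 CPM in controls (-0.84, SE 0.0852). TUBB2B, an isotype of the developing brain, had 640 and 569 CPM in knockdown libraries, against 914 and 942 CPM in controls (-0.62, SE 0.0795). TUBB2A, its near-identical neighbour, had 87.0 and 70.4 CPM in knockdown libraries, against 109 and 103 CPM in controls (-0.43, SE 0.0936), and the difference ranged from -0.60 to -0.28 when 1 library was left out. None of these 5 genes had a knockdown library as high as a control.

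TUBB6 went the other way. This divergent beta tubulin, known for a high level in non-neuronal cells, had 45.8 and 42.2 CPM in knockdown libraries, against 41.0 and 37.2 CPM in controls (log2 fold change 0.17, SE 0.0925). Its knockdown libraries lay above both controls, by little. TUBG1, the gamma tubulin of centrosomes, had 142 and 131 CPM in knockdown libraries, against 146 and 148 CPM in controls (-0.11, SE 0.0726), and it stayed between -0.17 and -0.05 when 1 library was left out. So 9 of 10 members had both knockdown libraries below both controls, among all tested genes 32.9%, and TUBB6 had both above, among all tested genes 32.3%. The statement that the RNAs fall together therefore describes the alpha tubulins and 5 of the 6 beta tubulins, and not TUBB6 or, in size, TUBG1. The median member was at -0.67, against 0.01 over 14723 tested genes.

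**Figure D1:**
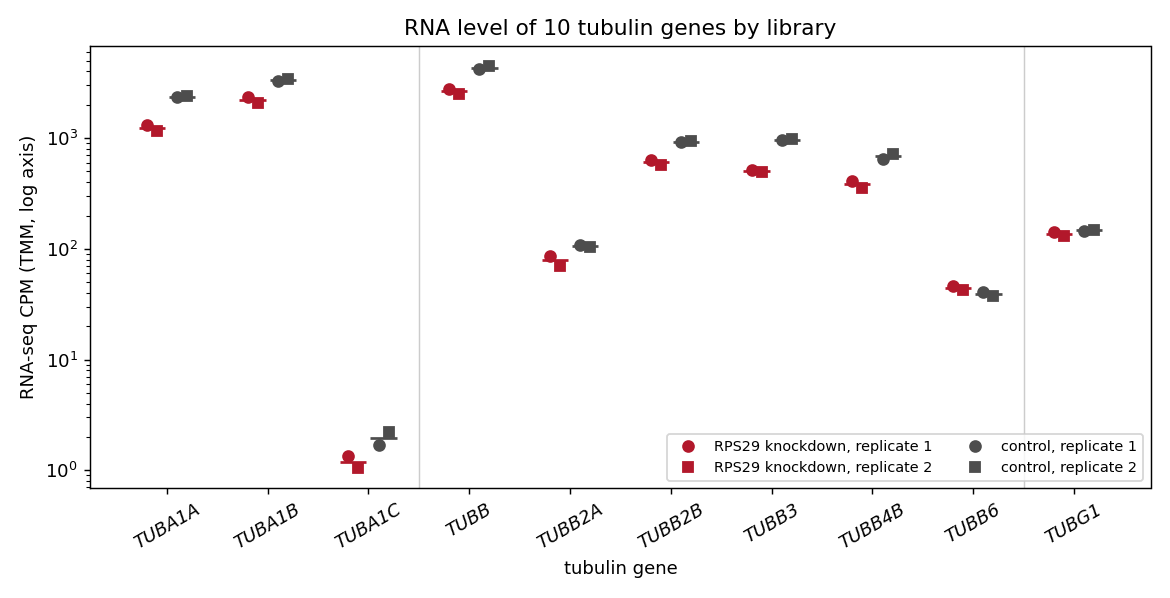
RNA level of the 10 tubulin genes in CPM with TMM scaling, on a log axis, in 2 knockdown (red) and 2 control libraries (grey), with the mean of each group as a line and thin vertical lines between the alpha, beta and gamma genes. Knockdown points lie below the controls for every gene but TUBB6, and nearly level with them for TUBG1 (142 and 131 CPM in the knockdown against 146 and 148 in controls).

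Taken as a share of the whole transcriptome, the 10 genes held 0.84 and 0.766% of RNA-seq counts in knockdown samples, against 1.24 and 1.28% in control samples. Within the alpha class the mix moved away from TUBA1A, which made up 35.8 and 36.1% of alpha counts in knockdown libraries and 41.3 and 41.0% in controls, a difference of -5.22 points that ranged from -5.40 to -5.03 when 1 library was left out. TUBA1B took up the difference, with 64.2 and 63.9% in knockdown libraries and 58.6 and 59.0% in controls. Within the beta class TUBB3 made up 11.5 and 12.3% in knockdown libraries and 14.0 and 13.5% in controls (-1.86 points, -2.24 to -1.47 when 1 library was left out). TUBB stayed near level, with 61.9 and 62.2% in knockdown libraries and 61.0 and 61.7% in controls. TUBB6, small throughout, made up 1.03 and 1.04% in knockdown libraries and 0.597 and 0.513% in controls. TUBB4B, with 9.21 and 8.71% in knockdown libraries and 9.49 and 9.89% in controls, also held less of its class. The brain isotype TUBB2B held more, at a mean of 14.2% in knockdown libraries and 13.1% in controls with no overlap, as did TUBB2A, with 1.95 and 1.73% in knockdown libraries and 1.59 and 1.42% in controls. The neural isotypes TUBA1A, TUBB3 and TUBB2B therefore did not shift in 1 direction. These shares are of counts not scaled to transcript length, so a gene is compared with itself across libraries and not with its neighbours.

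**Figure D2:**
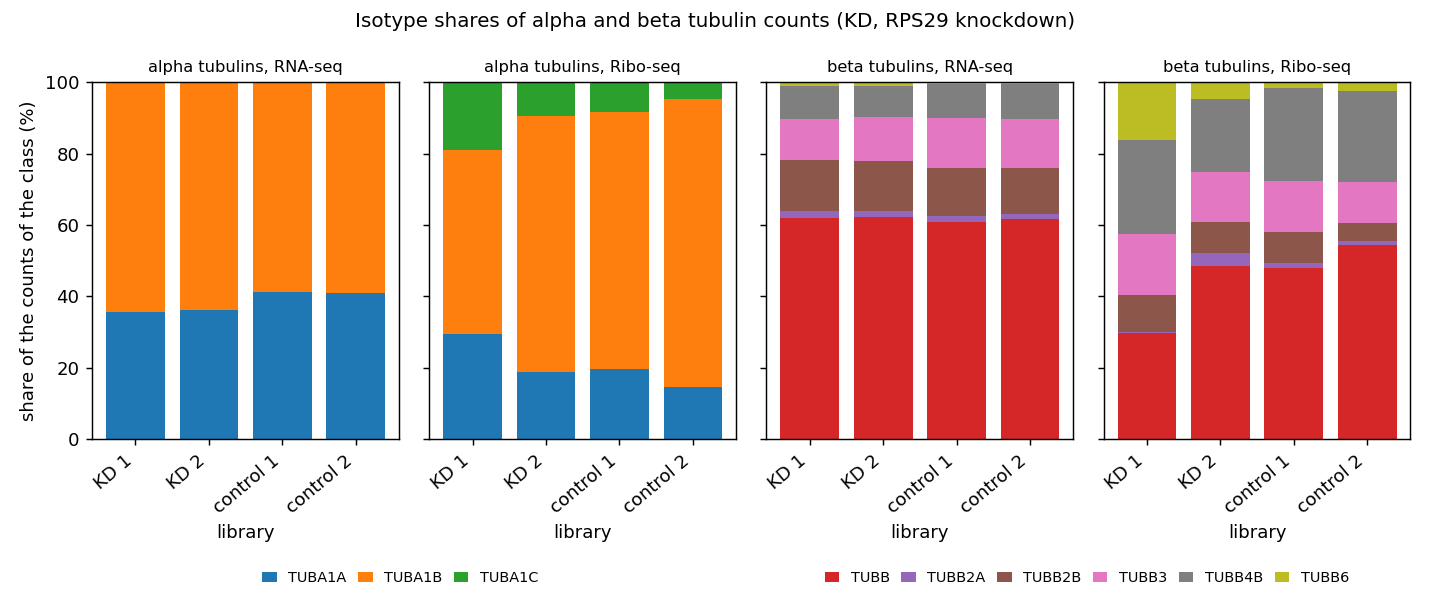
Stacked bars give the share of each isotype in the alpha or beta tubulin counts of a library (percent, unscaled counts), for RNA-seq and Ribo-seq, with knockdown (KD) libraries left of controls. In RNA-seq the TUBA1A share is 35.8 and 36.1% in the knockdown against 41.3 and 41.0% in controls, while the Ribo-seq bars differ between the knockdown replicates.

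By the pattern of their RNA over the 4 libraries, the genes nearest to the median tubulin profile (Euclidean distance on log2 CPM about each gene's mean, among protein-coding genes at a mean of 100 CPM or more) were RPS16, RPL15, EIF3E, RPL21 and CALM2. RPS16 and RPL15 are ribosomal proteins of the small and large subunit, EIF3E is a subunit of an initiation factor and CALM2 encodes calmodulin. RPS16, for example, had 755 and 662 CPM in knockdown libraries, against 1083 and 1135 CPM in controls. Their log2 fold changes lay between -0.65 and -0.62. With 4 libraries in 2 groups, a profile holds little beyond the group difference.

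Ribosome footprints on tubulin mRNAs were tested in the Ribo-seq libraries. Footprints of TUBA1B, TUBB and TUBB4B fell, and no member rose. That is 3 of 10 members, against 0.607% of 11853 tested genes called lower and 1.38% of the 2321 tested genes at 100 RNA CPM or more (edgeR quasi-likelihood test, Benjamini-Hochberg adjusted p below 0.05). Neither share is of genes chosen for a lower RNA, as the members were, so the difference cannot be read apart from that choice. At an unadjusted p below 0.05 there were 6 lower and 0 higher, and DESeq2 and limma-voom each called 4 lower and 0 higher. All members together held 628 and 1219 footprint counts in the knockdown libraries, against 3158 and 3485 in the controls. In CPM the sum was 261 and 306 in the knockdown, against 942 and 1057 in the controls, or 28.4% of the control mean.

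TUBA1B had 74 and 220 footprints in knockdown libraries, against 765 and 795 in controls. This is a log2 fold change of -2.44 (SE 0.585, edgeR adjusted p = 0.0153), at 18.4% of control. TUBA1A had 42 and 58 footprints in knockdown libraries, against 208 and 145 in controls (-1.73, SE 0.56), and missed the threshold at an adjusted p = 0.0659. Its groups did not overlap, and DESeq2 (0.0458) and limma-voom (0.0385) called it lower. TUBA1C had 27 and 29 footprints in knockdown libraries, against 89 and 47 in controls (-1.15, SE 0.66, adjusted p = 0.320). Over its long span of 46.7 kb the level of silent genes predicts 16.6 and 12.5 counts in knockdown libraries, against 3.88 and 2.17 in controls, which is a large part of its knockdown count. For TUBA1B the expected background was 1.28 and 0.967 counts in the knockdown. Summed, alpha tubulin footprints were at 22.1% of control.

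TUBB had 143 and 433 footprints in knockdown libraries, against 987 and 1346 in controls. This put it at 24.0% of control (log2 fold change -2.06, SE 0.602, edgeR adjusted p = 0.0425), although the knockdown replicates differed from each other (59.5 and 109 CPM). TUBB4B had 126 and 182 footprints in knockdown libraries, against 540 and 627 in controls (-1.84, SE 0.551, edgeR adjusted p = 0.0470), and its knockdown replicates were close (52.4 and 45.6 CPM). TUBB3 had 83 and 126 footprints in knockdown libraries, against 295 and 281 in controls (-1.39, SE 0.535, adjusted p = 0.123). TUBB2B had 49 and 77 in knockdown libraries, against 178 and 127 in controls (-1.21, SE 0.55, adjusted p = 0.198). Both had every knockdown library below every control in CPM and missed the threshold. TUBB2A had 1 and 33 footprints in knockdown libraries, against 27 and 26 in controls (-0.82, SE 1.05, adjusted p = 0.703), and its groups overlapped. TUBB6 had 77 and 42 footprints in knockdown libraries, against 30 and 62 in controls (0.60, SE 0.676, adjusted p = 0.658), and these overlapped too. Without knockdown replicate 1, TUBB2A was at 0.065 and TUBB6 at -0.39. The gamma tubulin TUBG1 had 6 and 19 footprints in knockdown libraries, against 39 and 29 in controls (-1.46, SE 0.879, adjusted p = 0.348).

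**Figure D3:**
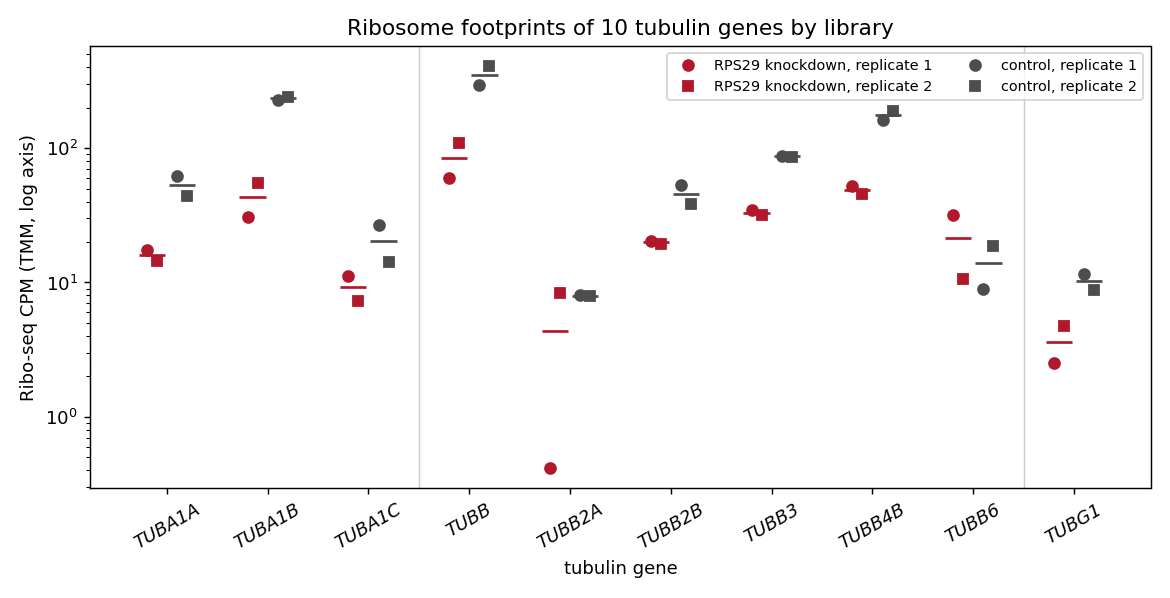
Ribosome footprints of the 10 tubulin genes in Ribo-seq CPM with TMM scaling, on a log axis, in 2 knockdown (red) and 2 control libraries (grey), with group means as lines and thin vertical lines between the alpha, beta and gamma genes. TUBA1B, TUBB and TUBB4B, the genes called lower, lie far below their controls (31 and 55 CPM against 228 and 241 CPM for TUBA1B), while TUBB2A and TUBB6 overlap.

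In 8 of 10 members both knockdown libraries were below both controls in footprint CPM. That holds for 26.7% of all tested genes, and for 51.5% of genes at 100 RNA CPM or more. Well-expressed genes as a class were lower: their median footprint change was -0.61, against 0.04 over all tested genes, and the median member was at -1.42. Of the genes at 100 RNA CPM or more, 0.302% were further down than TUBA1B, 1.34% than TUBB and 2.63% than TUBB4B. Scaled and tested among those 2321 genes alone, an alternative chosen after seeing the data, TUBA1B was at -1.82 (adjusted p = 0.0106) and TUBB at -1.43 (adjusted p = 0.0481), while TUBB4B was at -1.14 and not called (adjusted p = 0.0941). With the expected background taken off every gene, likewise chosen after seeing the data, they were at -1.82, -1.43 and -1.13, and neither these nor any other of 9640 genes was called (adjusted p = 0.229, 0.236 and 0.327). All 3 calls ended without control replicate 1 (adjusted p = 0.128, 0.212 and 0.270) and without control replicate 2 (0.233, 0.497 and 0.491). The call of TUBB also ended without knockdown replicate 1 (0.105) and with scaling on genes of at least 50 counts in every library (0.0636). That of TUBB4B ended without knockdown replicate 2 (0.0759), with RLE size factors (0.0513) and with the same 50-count scaling (0.0762). The log2 fold changes stayed negative throughout, from -3.00 to -1.82 for TUBA1B, from -2.63 to -1.43 for TUBB and from -2.08 to -1.13 for TUBB4B.

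The footprint change was larger than the RNA change in most members, as described by the ratio of footprints to RNA. This ratio contains the RNA values that chose the genes, so it carries no test either. It was lower in the knockdown in 9 of 10 members, among all tested genes 52% and among genes at 100 RNA CPM or more 75.8%. TUBA1B stood lowest at a log2 change of -1.82 (SE 0.466), followed by TUBB (-1.34, SE 0.505) and TUBG1 (-1.31, SE 0.44). TUBB4B was at -1.0, TUBA1A at -0.80 and TUBB2B at -0.59. TUBB3 (-0.45), TUBA1C (-0.44) and TUBB2A (-0.27) lay nearer to 0, with errors of 0.321 to 0.879, and TUBB6 was at 0.41. When 1 library was left out, the ratio change of TUBA1C ranged from -0.87 to 0.035. That of TUBB2A ranged from -3.87 to 0.50 and that of TUBB6 from -0.55 to 0.97, so these directions are not stable. The median member was at -0.69, against -0.55 for genes at 100 RNA CPM or more. That member median takes in TUBA1C, TUBB2A and TUBB6, whose mean RNA level was below 100 CPM. Of the members at 100 RNA CPM or more, TUBA1B, TUBB, TUBG1, TUBB4B, TUBA1A and TUBB2B lay below -0.55 and TUBB3 above it. In that class 2.07% of genes had a lower ratio change than TUBA1B, 25.6% than TUBB4B and 55.8% than TUBB3. Of the main alpha isotypes, TUBA1A had the lower RNA fold change and TUBA1B the lower footprint fold change, a difference that was not tested.

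**Figure D4:**
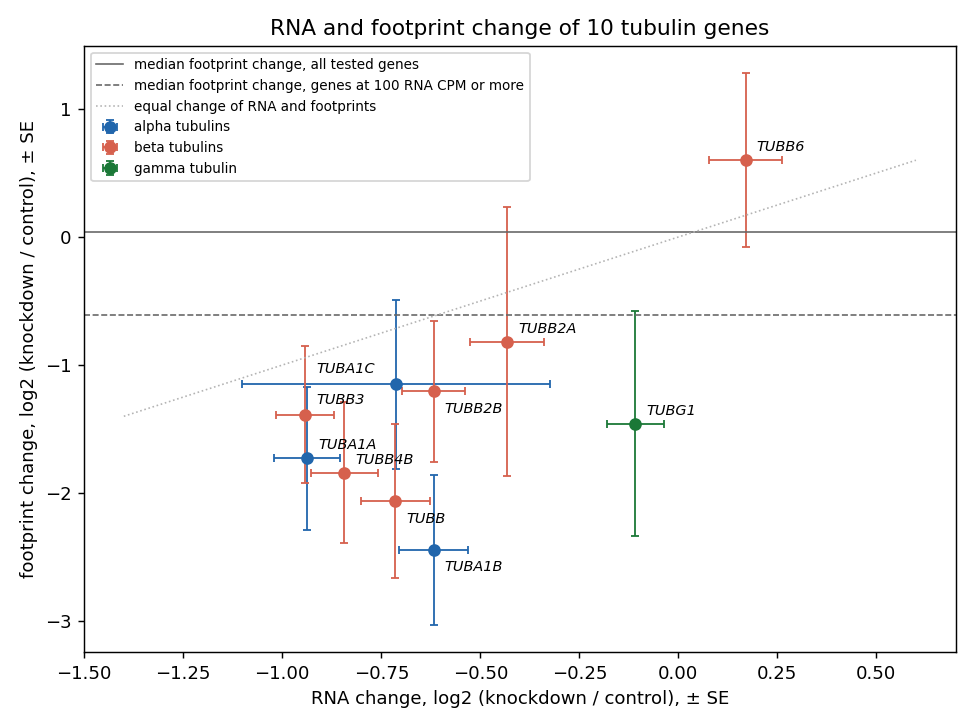
Footprint change against RNA change of each tubulin gene, both as log2 of knockdown over control with bars of ± 1 SE, coloured by class. Most genes lie below the dotted line of equal change and below the dashed median of genes at 100 RNA CPM or more (-0.61), with TUBA1B lowest (-2.44) and TUBB6 alone at the upper right (0.17 in RNA, 0.60 in footprints).

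Footprints per RNA (Ribo-seq CPM over RNA-seq CPM in the same replicate number) give the same comparison library by library. The labels do not say that same-numbered samples of the assays share a culture, so this matching is by number alone. For TUBA1B the value was 0.0132 and 0.0268 in the knockdown and 0.069 and 0.07 in the controls. For TUBB it was 0.0215 and 0.043 in the knockdown and 0.0702 and 0.0911 in the controls. In the controls the 9 members other than TUBA1C had means from 0.0224 (TUBA1A) to 0.355 (TUBB6), and 0.526% of genes were lower than TUBA1A. TUBA1C was at 8.43 and 6.94 in the knockdown and 15.7 and 6.39 in the controls, higher than in 97.9% of genes. Its RNA count is small beside its footprints, and whether RNA reads of TUBA1C were assigned to its near-identical copies was not tested.

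Other tubulin genes were counted by the same tests, with RNA called against 16.3% of tested genes lower and 14.4% higher. Of 13 others looked up, 9 were listed in RNA-seq and 6 tested, of which 3 fell and 0 rose (0 at an unadjusted p below 0.05 and 0 with DESeq2 or limma-voom, but 1 without knockdown replicate 2 and 1 without control replicate 2). TUBB4A, an isotype of neurons and oligodendrocytes, had 1373 and 1096 counts in knockdown libraries, against 1529 and 1704 in controls (log2 fold change -0.47, SE 0.0892, edgeR adjusted p = 0.00111). TUBA4A, an alpha isotype, had 20 and 27 counts in knockdown libraries, against 62 and 56 in controls (-1.4, SE 0.342, edgeR adjusted p = 0.00635). TUBD1, the delta tubulin of centrioles, had 122 and 118 counts in knockdown libraries, against 201 and 185 in controls (-0.76, SE 0.169, edgeR adjusted p = 0.00325). TUBG2, the second gamma tubulin gene, was at 0.35 (adjusted p = 0.209), TUBE1, the epsilon tubulin, at -0.11 (adjusted p = 0.703) and TUBA8 at 0.99 (adjusted p = 0.278). TUBA1B-AS1, named as antisense to TUBA1B but with a RefSeq span (chr12:49131606-49147863) that does not overlap it, fell (-0.95, edgeR adjusted p = 0.00917).

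In footprints 2 of 4 tested other tubulins were called higher, where 7.96% of tested genes were. TUBA8, another alpha isotype, had 104 and 81 counts in knockdown libraries, against 0 and 2 in controls (edgeR adjusted p = 0.00113). TUBA4A had 59 and 49 counts in knockdown libraries, against 9 and 5 in controls (log2 fold change 3.10, adjusted p = 0.0281), a call that ended when any 1 library was left out (adjusted p = 0.0570 to 0.368) and with limma-voom (0.152). Both RNAs were scarce, at most 3.49 CPM in a library. Among 2171 tested genes under 5 RNA CPM, 27.8% were called higher in footprints, with a median change of 1.94, beside the higher knockdown counts at silent genes given above. With the expected background taken off, the log2 fold change was 3.82 for TUBA4A and 8.02 for TUBA8. That setting called no gene, so its adjusted p says nothing of either. TUBB4A, with 40 and 28 footprints in knockdown libraries, was at -0.39 (adjusted p = 0.793).

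In the autoregulation route, RNA of TTC5 and SCAPER did not pass the test, and CNOT6 RNA fell. TTC5, the factor that reads the nascent tubulin, had 26.3 and 26.0 CPM in knockdown libraries, against 27.4 and 27.8 CPM in controls (log2 fold change -0.08, edgeR adjusted p = 0.610). SCAPER, its adaptor to the deadenylase, had 12.9 and 13.2 CPM in knockdown libraries, against 12.6 and 14.9 CPM in controls (-0.08, adjusted p = 0.711). Among the 13 genes of the route, with the CCR4-NOT subunits, 5 fell and 1 rose in RNA, against 16.3% and 14.4% of all tested genes. The deadenylase subunit CNOT6 fell (-1.02, SE 0.084, edgeR adjusted p = 8.74e-07), as did its paralog CNOT6L (-0.58, adjusted p = 0.00127) and the subunit CNOT11 (-0.38, adjusted p = 0.00211), while CNOT10 rose (0.44, adjusted p = 8.50e-04). The median of the list was -0.08. Without control replicate 1 there were 3 lower, and without knockdown replicate 2 there were 3 higher. In footprints SCAPER had 223 and 153 counts in knockdown libraries, against 36 and 51 in controls (2.31, adjusted p = 0.0256), a call that gave an adjusted p of 0.206 without knockdown replicate 1, and of 0.313 and 0.283 with control replicates 1 and 2 left out in turn. With the expected background taken off, SCAPER footprints were at a log2 fold change of 1.496 (edgeR adjusted p = 0.867), in a setting that called no gene. Knockdown counts at silent genes were higher, as given above, so the SCAPER call alone does not show more ribosomes on its mRNA. TTC5 footprints were at -1.32 (adjusted p = 0.188).

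Among folding factors, RNAs of the prefoldin subunits PFDN2 and PFDN6 rose. Over all tested genes 14.4% rose and 16.3% fell in RNA. Of 15 tubulin cofactors and prefoldin subunits 5 rose and 0 fell in RNA (1 at an unadjusted p below 0.05, 0 with DESeq2 or limma-voom, and 1 without knockdown replicate 1 or 2), with a median of 0.05. The prefoldin subunits PFDN2 (0.60, SE 0.085, edgeR adjusted p = 1.07e-04) and PFDN6 (0.40, adjusted p = 0.00287), which hand nascent tubulin and actin to the chaperonin, rose furthest. TBCE, an alpha tubulin cofactor, was at 0.33 (adjusted p = 0.0284) and missed the threshold with DESeq2, without knockdown replicate 1 and without control replicate 1. The list had 2 genes higher without control replicate 1, 3 without control replicate 2 or knockdown replicate 1, and 3 with DESeq2. Of the 8 subunits of TRiC, the chaperonin that folds tubulin, CCT3 fell in RNA (-0.30, SE 0.0754, edgeR adjusted p = 0.00821), a call that ended with control replicate 1 left out (adjusted p = 0.122) and with the other control left out (0.222), as with a replicate block (0.0514), and the list had 4 genes lower without knockdown replicate 1 and 2 higher without knockdown replicate 2. CCT6A fell in footprints, with 68 and 162 counts in knockdown libraries against 430 and 451 in controls (-1.94, edgeR adjusted p = 0.0379), a call that ended on leaving out control replicate 1 (0.240), control replicate 2 (0.401) or knockdown replicate 1 (0.0799).

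Among proteins that bind microtubules or set their dynamics, RNAs of STMN2, MAP4, MAP1A and MAPT, named by their RNA p, fell. Of 28 such genes 14 fell and 2 rose, against 16.3% and 14.4% of all tested genes, with a median of -0.26. STMN2, a neuronal stathmin that sequesters tubulin dimers, had 457 and 439 CPM in knockdown libraries, against 921 and 923 CPM in controls (log2 fold change -1.04, SE 0.0732, edgeR adjusted p = 2.51e-07). MAP4, a general stabiliser of microtubules, had 143 and 145 CPM in knockdown libraries, against 243 and 237 CPM in controls (-0.74, adjusted p = 3.03e-06). MAP1A (-0.68, adjusted p = 1.45e-05) and MAPT, which encodes tau (-0.98, adjusted p = 2.32e-05), fell too. STMN2 footprints also fell, with 144 and 317 counts in knockdown libraries against 961 and 815 in controls (-1.94, adjusted p = 0.0429), a call that ended when any 1 library was left out (0.0559 to 0.392). MAPRE3, a plus-end binding protein, rose (0.41, adjusted p = 0.00566), and 1 gene of the list was called higher without either control replicate or knockdown replicate 1. DCLK1, a doublecortin-like kinase, fell in RNA (-1.02) and was called higher in footprints (2.41, edgeR adjusted p = 0.0241). Its footprint call ended when any 1 library was left out, with a log2 fold change of 1.92 to 3.03. Knockdown counts at silent genes were higher, as given above, and DCLK1 was not among the 9640 genes tested with the expected background taken off.

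Around gamma tubulin, 4 of 21 genes of the ring complex and its anchors fell and 1 rose in RNA. Among all tested genes 16.3% fell and 14.4% rose. MZT1, a small subunit of the ring complex, fell (-0.71, SE 0.0875, edgeR adjusted p = 3.25e-05), as did TUBGCP6 (-0.49, adjusted p = 0.00261) and the augmin subunit HAUS4 (-0.45, adjusted p = 0.0186), and the augmin subunit HAUS2 rose (0.50, adjusted p = 8.95e-04). Without control replicate 2 there were 2 lower, HAUS4 not among them (adjusted p = 0.419), and without knockdown replicate 2 there were 4 higher. Of 20 tubulin modifying enzymes 3 fell and 3 rose in RNA, near the shares over all tested genes. VASH2, a carboxypeptidase that removes the terminal tyrosine of alpha tubulin, fell furthest (-1.32, SE 0.106, edgeR adjusted p = 7.12e-07), the deacetylase HDAC6 (-0.41, adjusted p = 0.00254) and the acetyltransferase ATAT1 (-0.43, adjusted p = 0.00872, but 0.103 without control replicate 1) fell, and AGTPBP1, which trims polyglutamate chains, rose (0.46, adjusted p = 0.00366). Without knockdown replicate 2 there were 8 lower, and without control replicate 2 there was 1 higher. In footprints the other tubulins and these lists had 9 genes called higher and 2 lower. Over all tested genes 7.96% were called higher and 0.607% lower. Taken over the tested genes of these lists, the 9 higher calls are near the former share. Of 22 tested modifying enzymes 4 were called higher: TTLL9 (3.37), TTLL11 (3.86), AGBL1 (3.04) and AGBL4 (2.11). Of 20 tested genes of the ring complex and its anchors 1 was called higher, the augmin subunit HAUS7 (2.76). Of these calls, all 5 ended without knockdown replicate 1 (adjusted p = 0.0634 to 0.288) and without control replicate 2 (0.0905 to 0.528). Those of HAUS7, TTLL9 and AGBL4 also ended without control replicate 1 (0.0719 to 0.258), and that of TTLL11 without knockdown replicate 2 (0.0925). With the expected background taken off, TTLL9 footprints were at 4.89 and HAUS7 footprints at 3.58, and that setting called no gene. TTLL11, AGBL1 and AGBL4 were not among the 9640 genes it tested. Actin and intermediate filament genes had 6 of 17 lower and 3 higher in RNA, with ACTA2, smooth muscle actin (0.77, edgeR adjusted p = 5.01e-05), NES, the filament nestin (-0.52, adjusted p = 6.21e-05), TMSB10 (-0.47, adjusted p = 6.23e-04) and LMNB1, lamin B1 (-0.42, adjusted p = 7.23e-04), first by p. The count of higher genes there was 5 without knockdown replicate 2, and 1 without control replicate 1 or 2. ACTB and ACTG1, the cytoplasmic actins, were at -0.29 and -0.32, less than the alpha and beta tubulin sums (-0.74 and -0.73), a difference that was not tested.

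**Figure D5:**
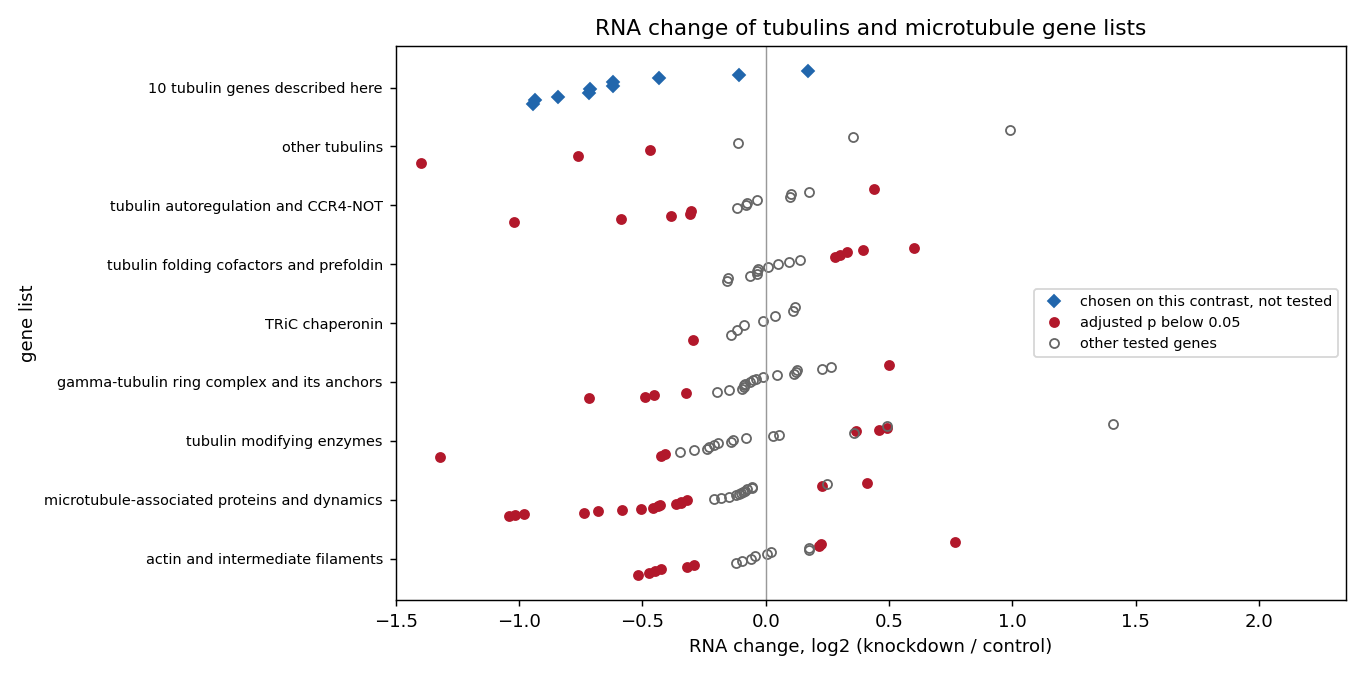
RNA change, as log2 of knockdown over control, of the 10 tubulin genes (blue diamonds, not tested), the other tubulins and 7 lists of tubulin and cytoskeleton genes, 1 point per tested gene, filled red where the edgeR adjusted p was below 0.05. Points of a list are spread vertically in order of value for legibility. Microtubule-associated proteins have 14 filled points left of 0 and 2 right of it, and folding cofactors 5 right of it.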

How the data were processed

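RNA-seq and Ribo-seq of 2 knockdown and 2 control samples each were analysed from 1 deposited table of whole-number counts per gene symbol and assay, with no normalization in them. The submitters' processing notes name STAR, Bowtie2, featureCounts, Salmon and Trim Galore and the build hg38. They give no versions, and the role of each tool, the annotation, strand use and any limit of footprints to coding exons are not given here. Per the labels' protocols, RNA-seq used a stranded total RNA kit, and Ribo-seq used RNase I, monosomes from a size column and rRNA depletion.

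In R 4.3.3, edgeR 4.0.16 (quasi-likelihood F test) was run on each assay alone with no replicate block (filterByExpr with a minimum count of 10, TMM, Benjamini-Hochberg over all 14723 RNA-seq or 11853 Ribo-seq genes tested, called at an adjusted p below 0.05). Standard errors are the absolute log2 fold change over the square root of F. The change in footprint to RNA ratio is the interaction of assay and condition, fitted with edgeR to 8 libraries and 10648 genes. A dispersion shared by both assays makes its errors too small for footprints. Expected background is a library's median Ribo-seq counts per kb over silent genes times a gene's span. The scripts were tested on simulated data. Isotype shares use counts unscaled by length, since no transcript lengths were at hand, and no protein sequence is shown.

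Members and gene lists were chosen with earlier results of these data known. Named genes are the 10 members, other tubulins that passed the test, TTC5, SCAPER, RPS29, up to 4 called genes per list by RNA p and the 5 nearest profiles. HAUS7, TTLL9, TTLL11, AGBL1, AGBL4, TUBA1B-AS1, MAPRE3, DCLK1, ACTB, ACTG1, CCT6A, TBCE, STMN2 footprints and the other tubulins below the threshold were named after their values were seen. Alternatives were size factors (RLE), total counts, no filter, DESeq2 1.42.0, voom of limma 3.58.1, a replicate block, other Ribo-seq scalings and leaving out each library. Replicate numbers come from the labels, which do not say what they share. RefSeq names and spans matched 17693 of 17927 RNA-seq and 13956 of 14019 Ribo-seq symbols.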

Additional observations from a re-analysis of the deposited data

How the results depend on the processing

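Over 11 alternatives, the count of members with a lower RNA level was 9 of 10 in each, and the median change of the footprint to RNA ratio ranged from -1.03 to -0.51 over its 12. Members called lower in footprints numbered 3, but 5 with the replicate block (TUBA1A, adjusted p = 0.0132, and TUBB3, 0.0393, besides the 3), 1 with scaling on genes with at least 50 counts in every library, 0 with the expected background taken off, and 0 to 2 when 1 library was left out. Genes of the other tubulins and pathway lists higher in RNA numbered 15, but 23 with total counts alone, and 8 to 26 when 1 library was left out. Such genes lower in footprints numbered 2, but 6 with DESeq2, 5 with limma-voom, 11 with the replicate block, 0 with scaling on genes of 50 counts and 0 with background taken off, and 0 to 1 when 1 library was left out. Those higher numbered 9, but 4 with total counts, 0 with background taken off, and 1 to 6 when 1 library was left out. Signs turned when 1 library was left out for SCAPER RNA, which ranged from -0.19 to 0.048 (above 0 without control replicate 2), and for footprints of TUBB2A, from -4.20 to 0.065, and TUBB6, from -0.39 to 1.17 (both turned without knockdown replicate 1), and TUBB4A, from -1.11 to 0.042 (above 0 without knockdown replicate 2, and 0.31 with background taken off). Ratio changes of TUBA1C, TUBB2A and TUBB6 also turned sign when 1 library was left out, as given above. The cause was not tested. The background subtraction called 0 of 9640 genes in either direction, so its counts of 0 say nothing particular of these genes. Total counts moved the median footprint change of all genes by -0.25, scaling on genes of 50 counts by 0.24, background subtraction by -0.20 and leaving out control replicate 1 by 0.11, with the member median at -1.68, -1.19, -1.10 and -1.34.

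The labels do not say that replicate numbers pair samples. Deviations of same-numbered samples correlated at -0.0374 in RNA-seq and 0.106 in Ribo-seq over all tested genes, and at -0.127 and 0.217 over genes with a mean above 50 counts. With the replicate block RNA calls over all genes were 1764 higher and 2048 lower, against 2126 and 2396 without it, and footprint calls 1402 and 397, against 944 and 72. With numbers crossed, a pairing added because of the correlation of -0.127, RNA calls were 2627 and 2849, and genes of those lists 18 higher and 40 lower against 15 and 36.

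Footprints of TUBB2A, TUBG1, TUBA1C and TUBB6 numbered 89 or fewer in each library, and their changes did not pass the test, which does not show that they were level. No spike-in was used for scaling, so all changes are relative to the other genes.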
